A study of Eleocharis dulcis with 24 samples.

Results

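The corm of *Eleocharis dulcis*, the Chinese water chestnut, is a swollen underground stem of a sedge. The present account covers its most abundant messages, defined as genes with an EdulChr identifier whose mean over 3 libraries reached at least 2000 TPM in at least 1 of 8 groups. TPM is the length-corrected share of a library's transcripts, scaled to the same total in every library, so that levels can be compared between genes. A total of 96 genes met this definition among 33415 EdulChr identifiers and 35975 features in all. The levels themselves chose these genes, so the levels are described here without a test. The 8 groups were cultivated and wild corms, each at initial swelling, middle swelling, late swelling and maturity, with 3 biological replicates a group, which the series design states, and 24 libraries in all. The labels name neither a cultivar, a wild population, a growing site nor an age in days, and how many lines or plants each origin stands for is not stated, so differences between origins cannot be told apart from differences of line or site. The deposited table pairs its identifiers with no gene names. Genes are therefore given by identifier with no function, and the tissue could not be checked against named markers.

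As background, a corm starts as a growing stem tip, in which cells divide and enlarge. It then turns into a storage organ that fills with starch and soluble sugars and finally becomes dormant. Storage organs of many plants devote a large part of their messenger RNA to few genes, often those of storage proteins, of stress-protective proteins and of starch and sugar metabolism.

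The 96 genes together held between 11.5 and 29.8% of all TPM, depending on the group. In cultivated corms their share was 19.5 ± 1.14% at initial swelling, 26.6 ± 0.284% at middle swelling, 25.6 ± 0.173% at late swelling and 29.8 ± 0.0882% at maturity (SD, n = 3). In wild corms it was 11.5 ± 0.0899, 12.8 ± 0.0394, 17.5 ± 0.391 and 25.8 ± 0.0432% (SD, n = 3). The ranges of the 3 libraries did not overlap between cultivated and wild corms at any stage, with the cultivated share above the wild one each time. At maturity the gap was the smallest, with 29.7 to 29.9% in cultivated and 25.7 to 25.8% in wild libraries. In a bulk sample, fewer cells of a type and less RNA per cell cannot be told apart, and this holds for every level given here. A further 10 features without the EdulChr prefix also reached 2000 TPM and lay outside the definition. Counted against the TPM of EdulChr identifiers alone, the share was 36.0% in mature cultivated and 37.1% in mature wild corms, so that the order of the origins at maturity turned. In wild initial corms both shares lay close, at 11.5 and 12.5%. Features without the prefix thus held a larger part of TPM in mature wild corms than in wild initial or mature cultivated ones. Since TPM has a fixed total, this leaves less of it for EdulChr identifiers in mature wild corms.

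**Figure D1:**
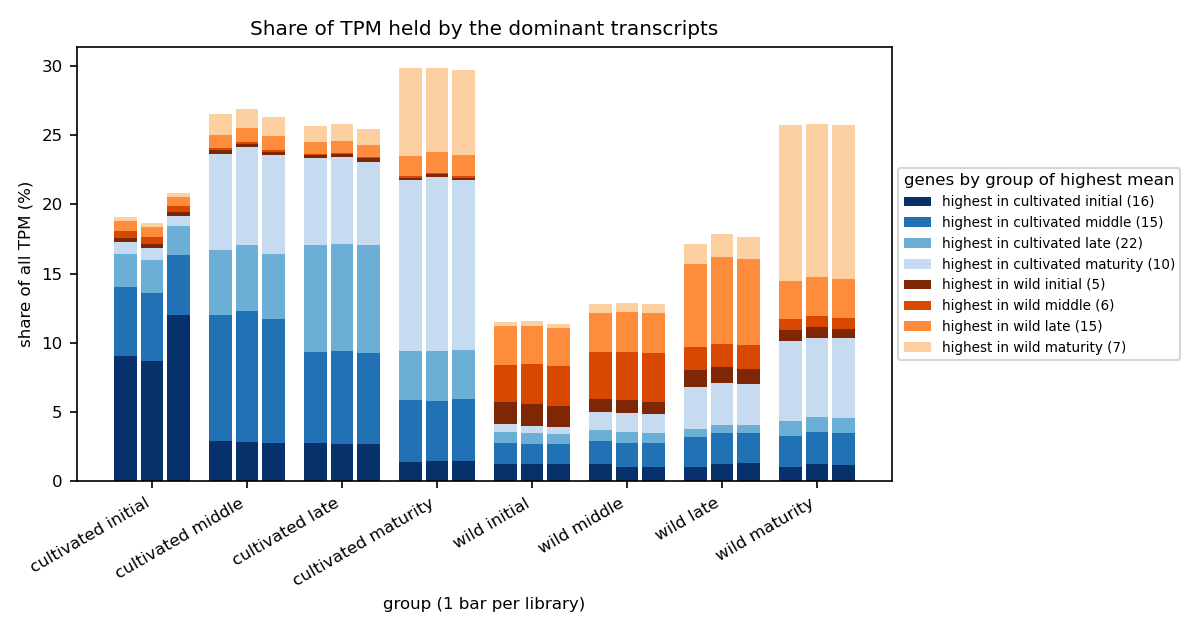
Share of all TPM (%) held by the 96 genes in each of the 24 libraries, with 1 bar per library, and with colours for the group in which a gene had its highest mean (number of genes in brackets). The total runs from about 11.5% in wild initial to 29.8% in cultivated maturity, and the 7 genes highest in wild maturity take 11.1 to 11.3% there.

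Few of these genes were abundant throughout. A total of 38 genes reached 2000 TPM in 1 group, 18 in 2 groups, 16 in 3 groups and 10 in 4 groups, while 8, 3 and 2 genes did so in 5, 6 and 7 groups. A single gene, EdulChr34G00135090, did so in all 8. The ratio of the highest to the lowest group mean, computed on TPM + 1, had a median of 25.6 and ran from 2.12 to 6734. It was above 100 for 28 genes and under 5 for 6. The highest mean fell in cultivated initial corms for 16 genes, middle for 15, late for 22 and maturity for 10. It fell in wild initial corms for 5 genes, middle for 6, late for 15 and maturity for 7. These counts hold for deposited TPM. Several peaks moved with median-of-ratios scaling, which sets the typical gene equal between libraries. EdulChr57G00203180, highest in wild initial corms in TPM, had scaled means of 4128 there and 5398 in wild late corms. Of the 71 genes at the limit in a cultivated group, 22 peaked at cultivated late swelling in TPM and 14 after scaling. Near the limit, EdulChr28G00113820 and EdulChr65G00224140 were the lowest genes inside it, with highest group means of 2014 ± 50.7 and 2026 ± 64.3 TPM in cultivated late corms. EdulChr10G00045260, at 1995 ± 58.5 TPM in wild middle corms, and EdulChr69G00235750, at 1976 ± 69.7 TPM in wild late corms, were the highest genes outside it (SD, n = 3). Libraries on either side of the limit overlapped, with 1957 to 2053 TPM for EdulChr28G00113820 and 1927 to 2030.4 TPM for EdulChr10G00045260.

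**Figure D2:**
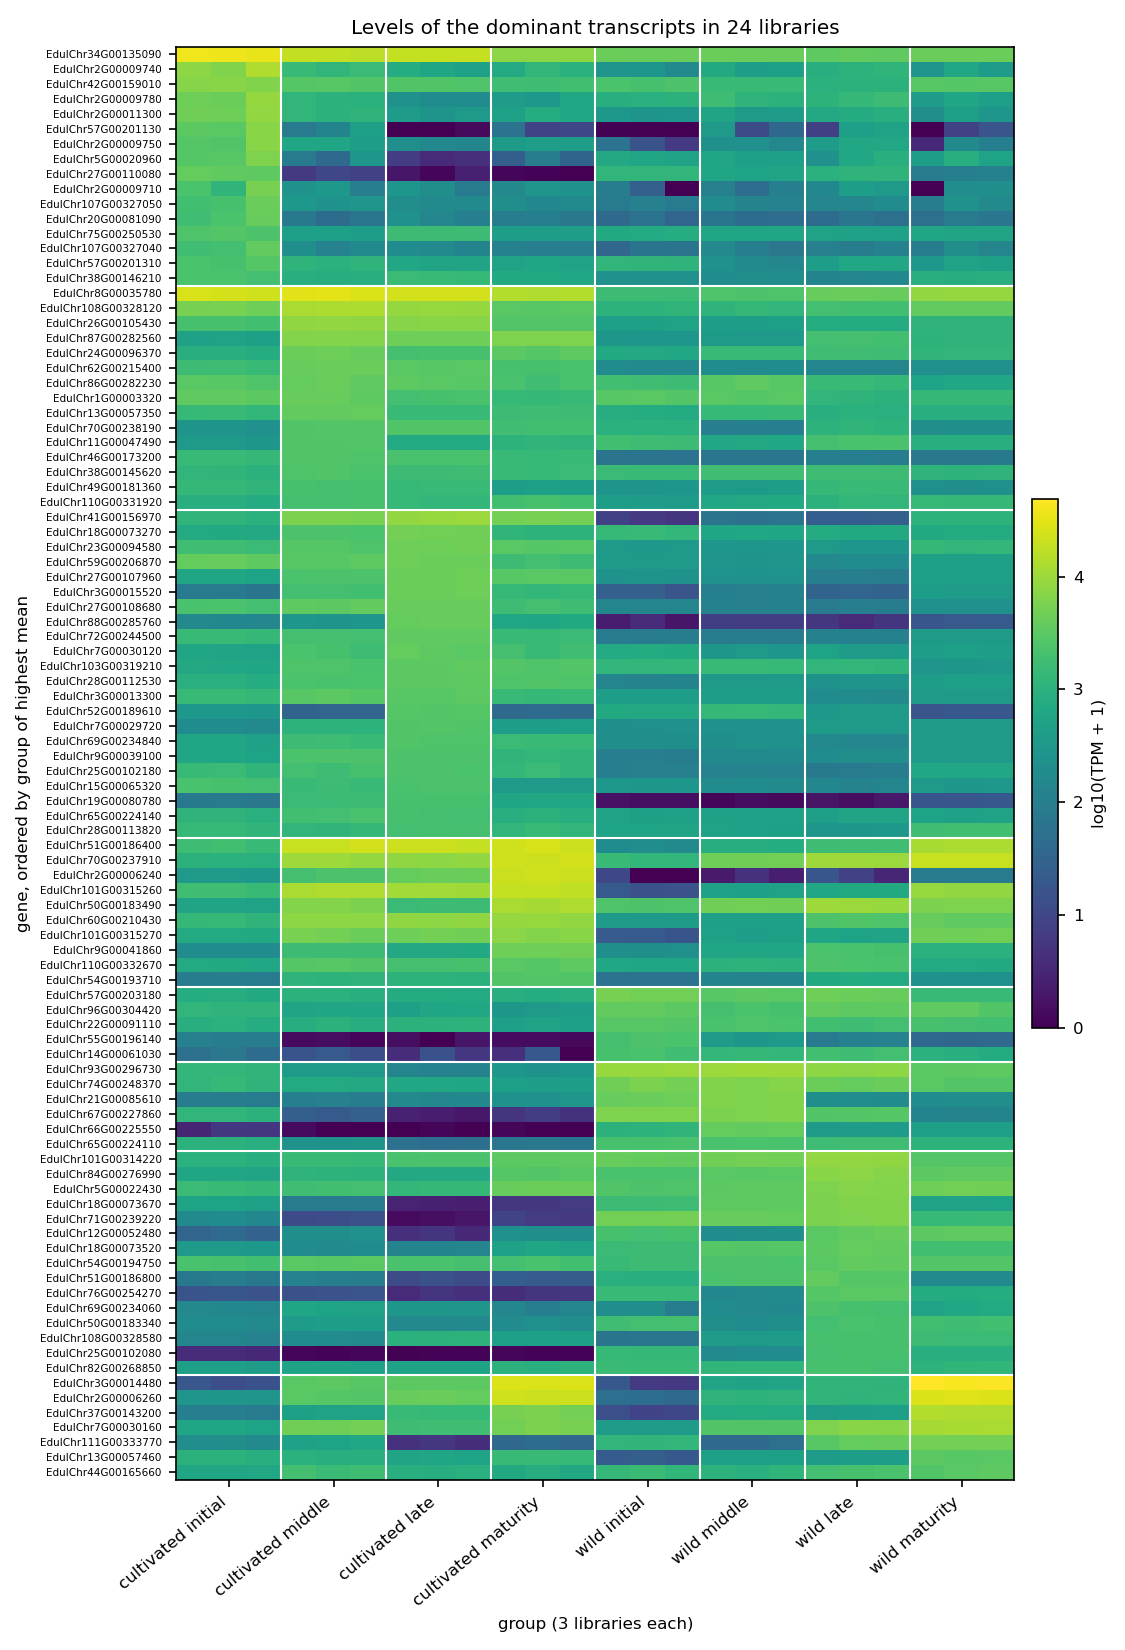
Levels of the 96 genes as log10(TPM + 1) in 24 libraries, 3 per group, with genes ordered by the group of their highest mean and white lines between groups. Some genes highest in 1 origin are dark in the other, such as EdulChr66G00225550 and EdulChr25G00102080 in cultivated corms and EdulChr88G00285760 in wild corms, and many genes of the top block are brightest in the third cultivated initial library.

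In cultivated initial corms 1 library stood apart most clearly for 10 of the genes. Among genes at 100 TPM or more, the replicate spread of the 96 genes was mostly small, with a median coefficient of variation between 2.58% in cultivated late and 7.25% in cultivated initial corms, against 2.62 and 6.88% for all tested genes at that level. Cultivated late was the only group in which the 96 genes had the lower median. In cultivated middle and mature corms they had 5.61 and 5.28%, against 3.69 and 3.61% for all tested genes. Single genes spread widely in other groups too, up to 96.9% in cultivated middle and 140% in wild middle corms. Within the cultivated initial group, however, 10 genes had coefficients of variation from 37.0 to 73.4%, and the next gene had 15.7%. In all 10 the third replicate was the high one, at 1.81 to 3.06 times the mean of the other 2. These 10 genes together took 3.40, 3.14 and 6.88% of TPM in the 3 cultivated initial libraries. The difference was not limited to them. The genes highest in each of the other groups took a lower share in the third library than in the other 2. For those highest in cultivated middle corms it was 4.99, 4.89 and 4.33% of TPM. How many of all genes tested spread as widely in this group was not counted. Without the third library 95 genes met the definition: EdulChr2G00009710 and EdulChr107G00327040 left it and 1 gene entered.

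Among the genes abundant throughout, EdulChr34G00135090 was the highest EdulChr gene in all 3 cultivated initial libraries. It stood at 38799.5, 37886 and 34641 TPM there, and at 7661, 7517 and 7673 TPM in mature cultivated corms. In wild corms it stood at 4372, 4208 and 4183 TPM at the initial stage and at 4088, 4165 and 4291 TPM at maturity. The lowest wild library held 3369 TPM, at late swelling, and every cultivated library lay above every wild one. The level course in wild corms depended on the scaling: with median-of-ratios scaling, which sets the typical gene equal between libraries, the wild means were 3504 at the initial stage and 7742 at maturity. EdulChr8G00035780 was the highest EdulChr gene in all cultivated middle and late libraries. It stood at 25993, 24809 and 22349 TPM in cultivated initial corms, 29578, 30918 and 28160.0 TPM at middle, and 14132, 13493 and 13875 TPM at maturity. In wild corms it was lowest at the start and highest at the end, from 1662, 1648 and 1667 TPM at the initial stage to 8355, 8812 and 8890.2 TPM at maturity. The origins lay closest at maturity, without overlapping in TPM, while the scaled means there were 15680.4 in cultivated and 16083 in wild corms, the opposite order.

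In deposited TPM EdulChr54G00194750 had the smallest ratio between group means of the 96 genes, 2.12, while after median-of-ratios scaling its ratio was 3.79 and that of EdulChr1G00003320 was the smallest, 2.65. The group means of EdulChr54G00194750 in TPM ran from 1611 ± 84.4 TPM in wild initial to 3417 ± 324 TPM in wild late corms (SD, n = 3), and it was at or above 2000 TPM in the other 7 groups. EdulChr38G00145620, with a ratio of 2.27, ran from 1097 TPM in wild maturity to 2494 TPM in cultivated middle corms. These 3 genes were named after their values were seen. All 4 stages of cultivated corms were at 2000 TPM or more for 6 genes, and all 4 stages of wild corms for 8 genes.

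The 16 genes highest in cultivated initial corms held 9.06, 8.70 and 12.0% of TPM there, and no more than 2.89% in any later cultivated library and 1.33% in any wild library. After EdulChr34G00135090 the highest was EdulChr2G00009740, with 7957, 6452 and 13402 TPM in the 3 cultivated initial libraries. By middle swelling its libraries held 1506, 1224 and 1606 TPM, and in wild corms they held between 176 and 1163 TPM over the 4 stages. All 3 cultivated initial libraries lay above all others, and the third was the highest. EdulChr27G00110080 behaved otherwise: its 3 cultivated initial libraries lay together at 3777, 3460.5 and 3359 TPM, and all 3 mature libraries were at 0.16 TPM or less. In wild corms it was at 1222 ± 13.2 TPM at the initial stage and at 103 ± 11.7 TPM at maturity (SD, n = 3).

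The 10 genes that were high in the third cultivated initial library were EdulChr2G00009710, EdulChr2G00009740, EdulChr2G00009750, EdulChr2G00009780, EdulChr2G00011300, EdulChr5G00020960, EdulChr20G00081090, EdulChr57G00201130, EdulChr107G00327040 and EdulChr107G00327050. They also varied together between replicates elsewhere. Over the 21 libraries of the other 7 groups, the deviations of log2(TPM + 1) from the group mean had a median Pearson r of 0.47 between pairs of these genes (range 0.14 to 0.94). Between pairs of the other 86 genes the median was 0.02 (5th to 95th percentile -0.60 to 0.66). These pairs share libraries and genes, and the value is a description. EdulChr57G00201130 showed the widest spread, with 329, 10.7 and 37.8 TPM in the wild middle libraries and 6.76, 445 and 509 TPM in the wild late ones. EdulChr2G00009710 was listed at 0, and stood at 199 and 215 TPM, in the 3 mature wild libraries. For both genes the replicates of 1 group overlapped those of most other groups outside cultivated initial corms.

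Many genes abundant in cultivated corms at middle swelling were also abundant at late swelling. Of 41 genes at 2000 TPM or more in cultivated middle corms, 34 were also at that level in late corms, which held 45 such genes. By contrast 10 of the 25 genes at that level in cultivated initial corms were shared with middle corms. From late to maturity 24 genes were shared and 21 left. EdulChr108G00328120 stood at 12857 ± 441 TPM at middle and 3078 ± 49.1 TPM at maturity in cultivated corms, and in wild corms at 1106 ± 57.3 TPM at the initial stage and 3676 ± 38.2 TPM at maturity (SD, n = 3). EdulChr41G00156970 had its highest mean at cultivated late swelling, 9153 ± 497 TPM, and was at 24.9 ± 1.18 TPM in wild late corms (SD, n = 3). These 2 genes were chosen for description after their values were seen.

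Among the genes highest at cultivated late swelling, some were abundant at that stage and far lower in the stages beside it or in wild corms. EdulChr88G00285760 stood at 3851, 3989 and 3903 TPM in cultivated late libraries, against 296, 264.5 and 289 TPM at middle and 657, 594 and 691 TPM at maturity. In all 12 wild libraries it lay between 0.91 and 20.4 TPM. EdulChr52G00189610 stood at 2813, 2746 and 2791 TPM in cultivated late corms and at 31.3 to 41.8 TPM at middle and maturity. In wild corms it was highest at middle swelling, with 1337, 1380.5 and 1296 TPM, and lowest at maturity with 16.2, 18.5 and 18.0 TPM. EdulChr19G00080780 was at 2092, 2143 and 2092 TPM in cultivated late libraries and at 18.3 TPM or less in every wild library. Cultivated and wild libraries of EdulChr88G00285760 and EdulChr19G00080780 did not overlap at any stage. Such an order, with cultivated above wild, was common: at a single stage it held for 31.9 to 50.7% of all genes tested.

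Genes highest at maturity reached the greatest levels of the series among EdulChr identifiers. EdulChr3G00014480 was the highest EdulChr gene in all 6 mature libraries, with 28102, 27026 and 27885 TPM in cultivated and 49036, 45013 and 45739 TPM in wild corms. At the initial stage its libraries held 17.7, 12.3 and 13.9 TPM in cultivated and 18.4, 5.29 and 5.08 TPM in wild corms. Between late swelling and maturity its mean was 40.3 times higher in wild and 8.55 times higher in cultivated corms. EdulChr2G00006260 followed the same course, with 22699, 20299.6 and 21317 TPM in mature cultivated and 27385, 29253 and 28172 TPM in mature wild libraries. Its mean at maturity was 24.3 times the late value in wild and 5.38 times in cultivated corms. The cultivated libraries of both genes lay above the wild ones at middle and late swelling and below them at maturity.

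EdulChr2G00006240, whose identifier lies 2 places from that of EdulChr2G00006260, had the largest excess in cultivated corms of the 96 genes. In cultivated corms it stood at 348, 335 and 310.2 TPM at the initial stage and at 20258, 22388 and 20781 TPM at maturity. In wild corms the mature libraries held 83.6, 87.1 and 90.0 TPM, and 2 of 3 initial libraries were listed at 0. Its neighbour thus was abundant at maturity in both origins, and this gene in cultivated corms alone. The identifier between them, EdulChr2G00006250, had a highest group mean of 98.8 TPM. How reads were assigned between these 2 genes, should they be similar in sequence, is not given in the sources used here, and a split of reads between copies was not tested.

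EdulChr51G00186400 reached its high level early in cultivated corms and late in wild ones. Its cultivated libraries held 1678, 1854 and 1519 TPM at the initial stage, 19632, 19484 and 23343 TPM at middle, and 22733, 26033 and 21861 TPM at maturity. Its wild libraries held 178 to 199 TPM at initial, 808 to 839 TPM at middle and 1706 to 1781 TPM at late swelling, then 12071, 12833 and 13032 TPM at maturity. EdulChr70G00237910 followed a more similar course in the origins, though their libraries did not overlap at any stage. The cultivated libraries were higher at middle swelling and maturity and lower at the other stages in TPM, but the scaled means at maturity, 25419 in cultivated and 36398 in wild corms, had the opposite order. It went from 1034, 1009 and 932 TPM to 22846, 21267 and 23156 TPM in cultivated corms, and from 1474, 1290 and 1224 TPM to 19471, 20017 and 19488 TPM in wild corms. EdulChr50G00183490 was highest in cultivated maturity at 12479.6 ± 844 TPM and, among wild groups, at late swelling with 9626 ± 487 TPM (SD, n = 3). Its mean in cultivated corms alternated, with 6343 ± 483 TPM at middle and 1602 ± 20.1 TPM at late swelling (SD, n = 3).

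**Figure D3:**
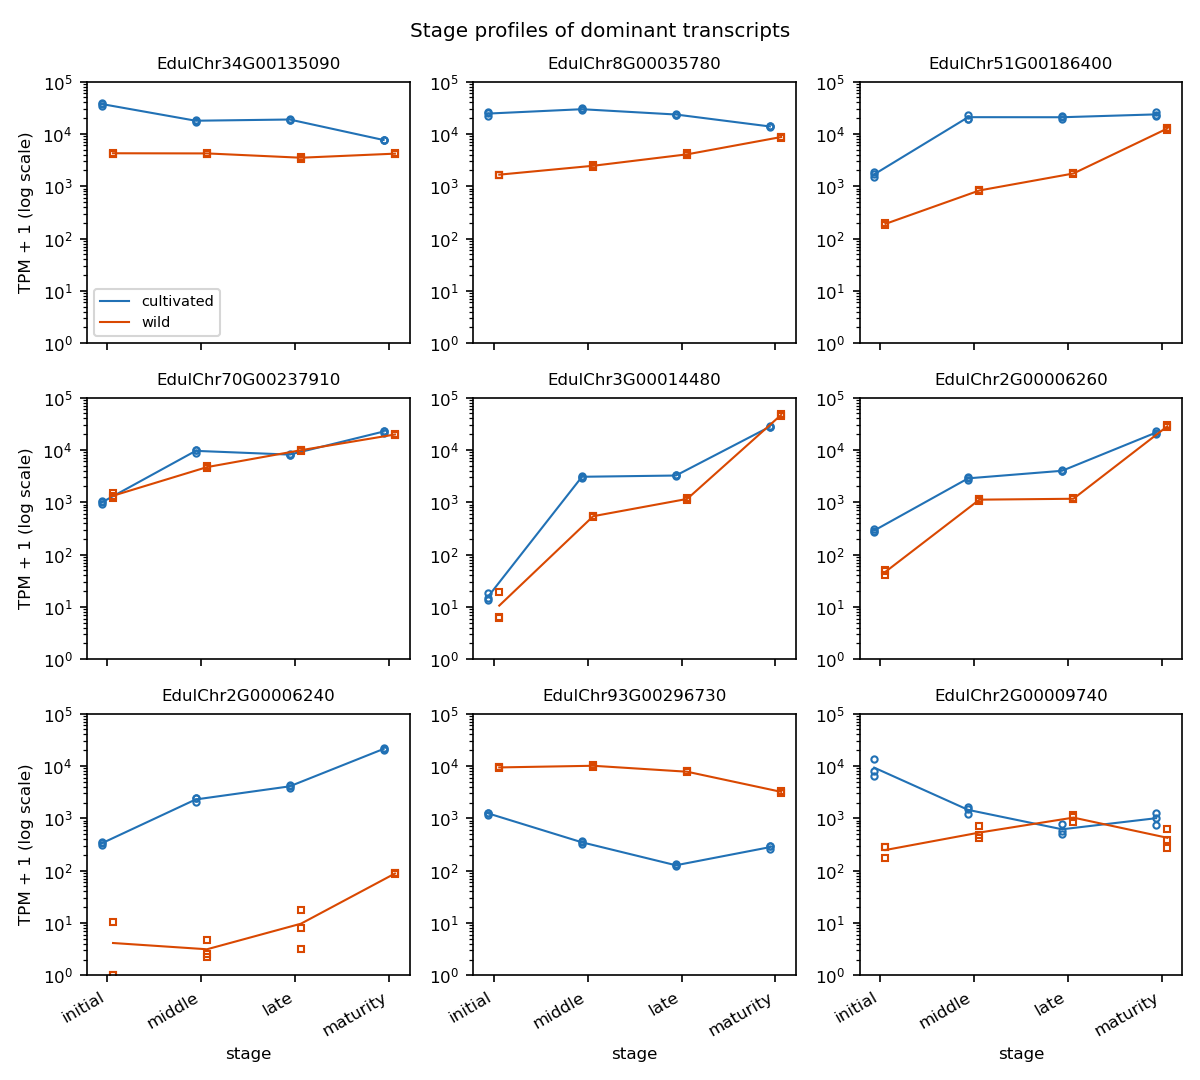
TPM + 1 on a log scale by stage for 9 of the 96 genes, with 1 point per library (circles for cultivated, squares for wild corms) and lines through group means. EdulChr34G00135090 runs highest in cultivated initial corms, EdulChr3G00014480 and EdulChr2G00006260 are at 20299.6 TPM or more in every mature library, and EdulChr2G00006240 is at 20258 TPM or more in mature cultivated libraries while its wild libraries stay at or under 90.0 TPM.

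Wild corms had dominant genes of their own from the start. EdulChr93G00296730 was the highest EdulChr gene in all wild initial and middle libraries. It stood at 9099, 9433 and 9557 TPM at the initial stage, 9742, 10328 and 10137 TPM at middle and 3058, 3218 and 3317 TPM at maturity. Its cultivated libraries held 1167 to 1287 TPM at the initial stage and 119 to 133 TPM at late swelling, below every wild library. EdulChr74G00248370 stood at 4733, 5716 and 5209 TPM in wild initial corms. In cultivated corms it stood at 1247, 1369 and 1123 TPM at the initial stage and at 409 to 447 TPM at maturity. EdulChr67G00227860 was at 6094, 6030.3 and 6042 TPM in wild initial and at 132, 124 and 128 TPM in wild mature corms. In cultivated corms EdulChr67G00227860 was at 1163 ± 95.2 TPM at the initial stage and at 1.39 ± 0.336 TPM at late swelling (SD, n = 3).

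Several wild-dominant genes had narrow or broken courses. EdulChr21G00085610 stood at 3935, 4238 and 4567 TPM in wild initial and 6228, 6162 and 6213 TPM in wild middle libraries, and then at 181 to 220 TPM at late swelling and maturity, while its cultivated libraries went from 88.0 to 93.6 TPM at the initial stage to 235 to 274 TPM at maturity. EdulChr101G00314220 peaked at wild late swelling with 8503 ± 202 TPM and in cultivated corms had a higher mean at each later stage, 947 ± 63.6 TPM at first and 3270 ± 71.5 TPM at maturity (SD, n = 3). EdulChr66G00225550 was at 3761, 3661 and 3772 TPM in wild middle libraries and at 4.78 TPM or less in every cultivated library. EdulChr25G00102080 was at 1996, 2119 and 2076 TPM in wild late libraries and at 2.70 TPM or less in every cultivated library. EdulChr76G00254270 was at 2824, 3116 and 3069 TPM in wild late libraries and at 17.1 TPM or less in cultivated ones.

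The last 2 of these genes belonged to a set of 6 with a dip at wild middle swelling, a pattern noticed after the values were seen. In these 6 genes the wild initial and late means were each at least 5 times the wild middle mean, which was so for 6.25% of the 96 genes and 1.53% of the 27050 genes tested. The others were EdulChr12G00052480, EdulChr50G00183340, EdulChr70G00238190 and EdulChr111G00333770. All of the 6 but EdulChr70G00238190 reached 2000 TPM in wild groups alone. The wild levels that make the dip thus also chose these genes, and nothing is read from the 2 shares. EdulChr111G00333770 had the deepest dip, from 1218 ± 48.9 TPM to 44.2 ± 8.18 TPM and back to 3594 ± 569 TPM (SD, n = 3), the late mean being 81.4 times the middle mean. EdulChr12G00052480 went from 2055 ± 92.3 through 208 ± 14.2 to 3612 ± 439 TPM (SD, n = 3). In cultivated corms EdulChr111G00333770 and EdulChr12G00052480 were highest at middle swelling, at 543 and 223 TPM, and lowest at late swelling, at 3.74 and 3.40 TPM.

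The next comparison set cultivated against wild corms. Of the 96 genes, 71 reached 2000 TPM in a cultivated group and 48 in a wild group. The 23 that did so in both made up 32.4% of the cultivated and 47.9% of the wild list. The lists were most alike at maturity, where 17 genes were shared, 54.8% of 31 cultivated and 65.4% of 26 wild genes. At the initial stage 3 genes were shared, 12.0% of 25 cultivated and 15.8% of 19 wild genes, at middle swelling 8 and at late swelling 7. The 48 genes of the cultivated list alone had a median highest wild mean of 617 TPM (17.6 to 1924), with 4 of them under 100 TPM in every wild group. The 25 of the wild list alone had a median highest cultivated mean of 530.0 TPM (2.59 to 1740.01), with 5 under 100 TPM.

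**Figure D4:**
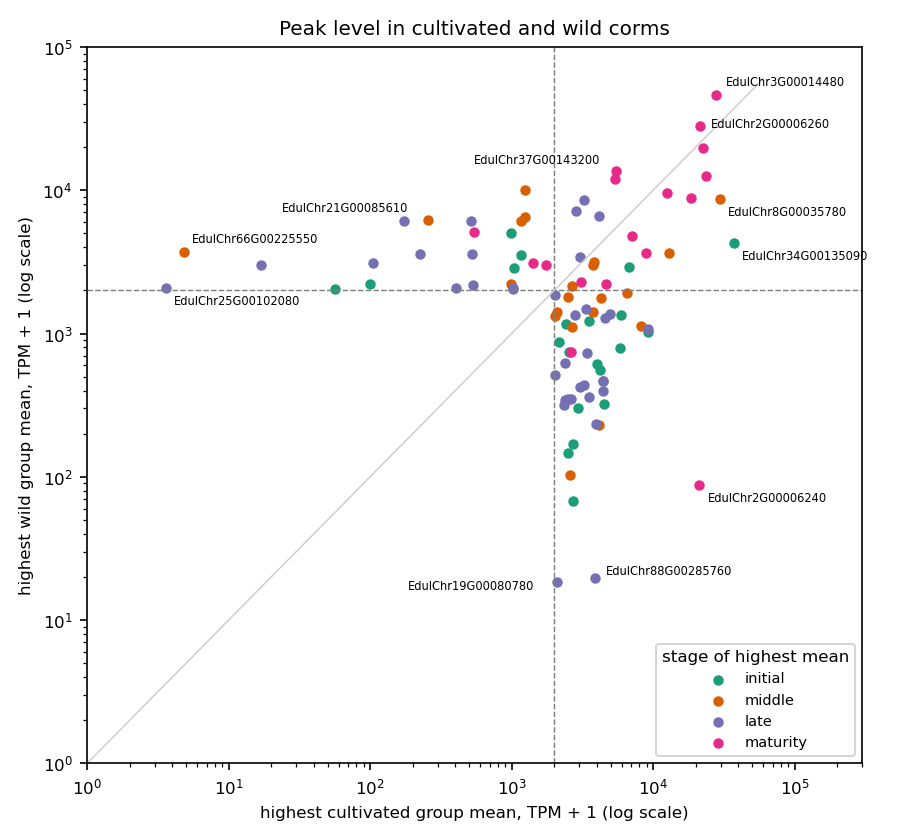
Highest group mean of each of the 96 genes in cultivated (horizontal) and wild corms (vertical), as TPM + 1 on log scales, coloured by the stage of the overall highest mean. Dashed lines mark the 2000 TPM limit and the grey line marks equality. In the upper right, beyond both dashed lines, lie the 23 genes of both lists. EdulChr2G00006240 lies far to the right at 86.9 TPM in wild maturity, and EdulChr66G00225550 and EdulChr25G00102080 lie at the left edge.

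Levels were also set side by side between the origins at each stage. At the initial stage all 3 cultivated libraries lay above all 3 wild ones for 58 genes, and 36 genes showed the opposite order. Over all genes tested these orders held for 46.6 and 39.4%. The corresponding numbers were 63 and 27 at middle swelling (31.9 and 57.8% of all genes tested), 50 and 41 at late swelling (50.7 and 37.6%) and 51 and 37 at maturity (49.2 and 29.7%). After median-of-ratios scaling the last 2 pairs became 42 and 49 (37.6 and 49.5% of all genes tested), and 36 and 50 (35.9 and 43.3%), so that the order turned with the scaling in these genes and in all genes alike. Means at least 10-fold apart on TPM + 1, cultivated over wild, were found in 21, 22, 21 and 5 genes from initial to maturity, against 0.957, 1.59, 1.79 and 1.97% of all genes tested. Wild over cultivated, they were found in 10, 14, 19 and 14 genes, against 2.05, 5.93, 4.94 and 1.28%. Since the rule used these levels, no test is given and nothing is read from these counts.

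A test was possible where the libraries tested had not chosen the genes. The 71 genes chosen on cultivated libraries were therefore followed through the stages of wild corms, and the 48 chosen on wild libraries through those of cultivated corms. limma was fitted to log2(TPM + 1) of the 27050 genes that reached 1 TPM in 3 or more libraries, a filter that all 96 genes passed. Calls needed an adjusted p (Benjamini-Hochberg, over all 27050 genes) under 0.05 and a change of 2-fold or more. Median-of-ratios scaling moved the median change of all genes tested from -0.90 to -0.14 between initial and maturity in wild corms, and from -0.61 to -0.12 in cultivated corms, so counts are also given on that scale.

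In wild corms, 30 of the 71 genes chosen on cultivated corms rose from the initial stage to maturity, 8 fell and 33 were not called. Among all genes tested 4.29% rose and 46.4% fell in this comparison. The median change of the 71 genes was 0.82 on the log2 scale, against -0.90 for all genes tested. After median-of-ratios scaling 51 rose and 3 fell, against 14 and 23.2% of all genes. By step, 19 rose and 6 fell from initial to middle (4.36 and 5.81% of all genes tested), and 15 rose and 7 fell in the step to late swelling (7.85 and 26.8%). The step to maturity had 23 that rose and 17 that fell (3.86 and 27.4%). The scaled numbers for these steps were 17 and 6 (3.29 and 5.97% of all genes), 30 and 2 (14.5 and 11.1%), and 32 and 10 (10.1 and 20.3%). Without the third cultivated initial library the list held 70 genes, of which 29 rose and 9 fell from the initial stage to maturity. The 71 genes all hold high levels somewhere, whereas the 27050 include weakly detected ones, and the part of this in the contrast was not tested.

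Of the 30 that rose, EdulChr3G00014480 changed the most, by 12.33 ± 0.26 on the log2 scale (SE, limma adjusted p = 3.67e-20), with all 3 mature libraries above all 3 initial ones. EdulChr37G00143200 rose by 10.32 ± 0.11 (SE, limma adjusted p = 6.05e-25), from 13.0, 7.77 and 9.03 TPM to 14221, 13572 and 13309 TPM. The neighbouring pair EdulChr101G00315260 and EdulChr101G00315270 rose by 9.00 ± 0.10 and 7.88 ± 0.09 (SE, limma adjusted p = 2.56e-24 and 5.59e-24). EdulChr51G00186400 rose by 6.05 ± 0.08 (SE, limma adjusted p = 3.47e-23). EdulChr2G00006240 rose by 5.33 ± 0.63 (SE, limma adjusted p = 9.27e-08), though to a mature wild mean of 86.9 ± 3.21 TPM (SD, n = 3). EdulChr52G00189610 had the largest fall, a change of -5.20 ± 0.05 on the log2 scale (SE, limma adjusted p = 1.81e-25), from 699, 681 and 670 TPM to 16.2, 18.5 and 18.0 TPM. EdulChr27G00110080 followed, with a change of -3.56 ± 0.19 (SE, limma adjusted p = 1.64e-13).

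In cultivated corms, 20 of the 48 genes chosen on wild corms rose from the initial stage to maturity, 17 fell and 11 were not called. Among all genes tested 7.94% rose and 36% fell. The median change of the 48 genes was 0.11 on the log2 scale, against -0.61 for all genes tested. Scaling gave 22 and 15, against 15.9 and 20.8% of all genes. From initial to middle 19 rose and 12 fell (9.04 and 30.9% of all genes tested). In the step to late swelling 2 rose and 14 fell (8.87 and 3.75%), and in the step to maturity 17 rose and 5 fell (2.16 and 10.2%). The step to late swelling was thus the one in which most called genes of the 48 were lower, while more of all genes were called higher than lower, a background order that turned with scaling. Scaled numbers for these steps were 22 and 8, 2 and 20, and 25 and 1, against 15.3 and 19.2%, 3.82 and 6.22%, and 4.55 and 2.88% of all genes tested.

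EdulChr3G00014480 also had the largest rise here, 10.80 ± 0.26 on the log2 scale (SE, limma adjusted p = 4.27e-19). EdulChr2G00006260 rose by 6.22 ± 0.07 (SE, limma adjusted p = 1.28e-24), from 283, 304 and 274 TPM. EdulChr67G00227860 had the largest fall, a change of -7.66 ± 0.12 on the log2 scale (SE, limma adjusted p = 2.88e-22), from 1224, 1212 and 1053 TPM to 4.30, 6.18 and 3.94 TPM. EdulChr18G00073670 fell by 6.45 ± 0.07 (SE, limma adjusted p = 1.66e-24), from 531, 532 and 473 TPM to 4.43, 4.54 and 5.63 TPM. In wild corms EdulChr18G00073670 was highest at late swelling, with 5712, 6359 and 6298 TPM. EdulChr34G00135090 fell by 2.28 ± 0.05 (SE, limma adjusted p = 9.57e-20). The added 1 makes the fitted changes of low genes too small.

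**Figure D5:**
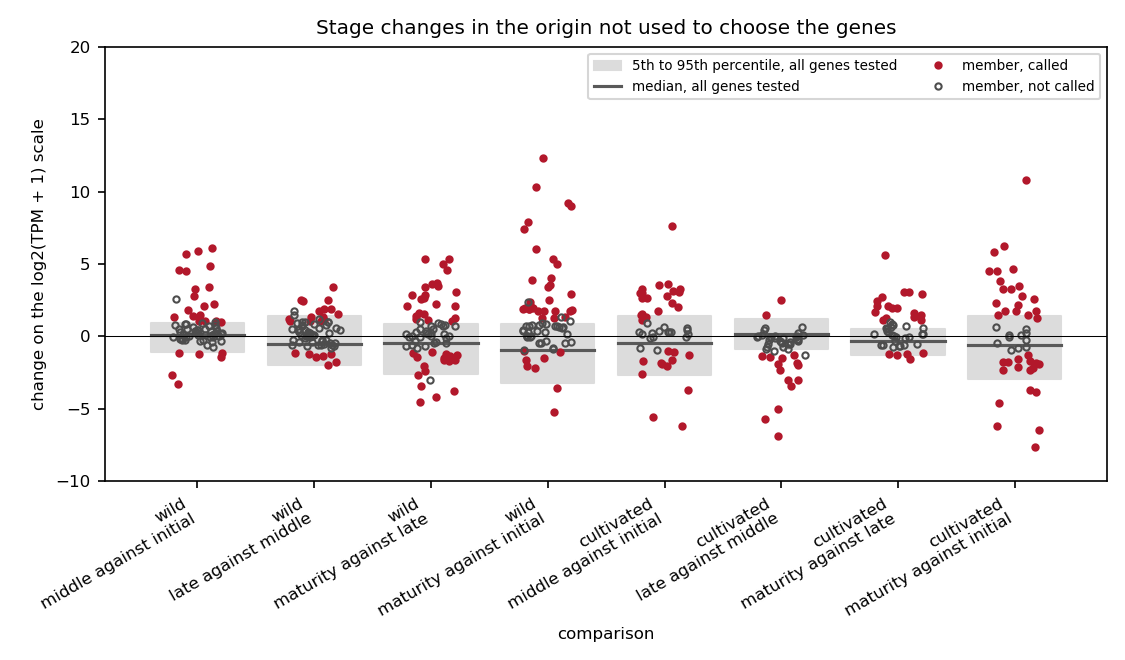
Change on the log2(TPM + 1) scale in each stage comparison for the genes chosen on the other origin (71 genes in the 4 wild comparisons, 48 in the 4 cultivated ones), filled where called by limma. Grey boxes span the 5th to 95th percentile and the dark line the median of all 27050 genes tested. From initial to maturity the members' points reach 12.33 in wild and 10.80 in cultivated corms, while the median gene lies at -0.90 and -0.61.

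The 23 genes of both lists were chosen by their levels in both origins, so their courses are described with no joint test. Between initial swelling and maturity 11 of the 23 were called higher in both origins, 1 lower in both and 0 in opposite directions. The remaining 11 lacked a call in 1 or both origins, and nothing is read from these counts. The gene described next was among the 11 higher in both and does not stand for the 23. EdulChr9G00041860, named with its values known, had its highest wild mean at late swelling, 2214 ± 59.0 TPM, and its highest cultivated mean at maturity, 4645 ± 128 TPM (SD, n = 3). Its wild libraries at maturity, 973 to 1004 TPM, lay below the late ones, whereas its cultivated libraries at maturity, 4538 to 4787 TPM, lay above all earlier ones.

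Peak stages gave a further view that used the libraries of the other origin. Of the 71 genes chosen on cultivated corms, 37 had their highest wild mean at maturity, 21 at late, 6 at middle and 7 at the initial stage. Among all genes tested 7.52% had their highest wild mean at maturity and 42.7% at middle. Of the 22 genes of this list with their highest cultivated mean at late swelling, 16, or 72.7%, were highest at maturity in wild corms, against 12.6% of the 7424 tested genes highest at cultivated late swelling. The same stage was highest in both origins for 19 of the 71 genes, 26.8%, and for 17 of the 48 genes chosen on wild corms, 35.4%, against 33.4% of all genes tested. Of the 48 genes chosen on wild corms, 19 had their highest cultivated mean at maturity, 13 at middle, 14 at the initial stage and 2 at late swelling, against 5.94, 11.1, 55.5 and 27.4% of all genes tested. Scaling moved the first comparison to 48 of 71 genes with a wild maturity peak, against 27.5% of all genes, and the second to 20 of 48 genes with a cultivated maturity peak, against 19.4% of all genes. The pairing of cultivated late with wild maturity peaks and the same-stage shares are given in deposited TPM alone. After scaling, 14 of the 71 genes and 16.1% of all genes tested were highest at cultivated late swelling.

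The identifiers give a chromosome label and a running number, which is all the table says of position. The 96 genes carried 7 identifiers of chromosome label 2, or 1.02% of the 688 in the table with that label, and at most 3 of any other label. Over all EdulChr identifiers the share was 0.287%. Label 101, with 3 of 252 identifiers, had the highest share, 1.19%. Next to each other in the order of identifiers lay 3 pairs: EdulChr2G00009740 with EdulChr2G00009750, EdulChr101G00315260 with EdulChr101G00315270, and EdulChr107G00327040 with EdulChr107G00327050. Over 24 libraries their log2(TPM + 1) values had a Pearson r of 0.89, 0.99 and 0.98. All 4560 pairs of the 96 genes had a median of 0.08 (5th to 95th percentile -0.88 to 0.90), a range that held the first of these values. Such a value mostly follows the differences between groups, which all libraries share. EdulChr101G00315260 was at 18442 ± 729 TPM in cultivated and 8773 ± 432 TPM in wild maturity, and its neighbour at 7122 ± 421 and 4759 ± 156 TPM (SD, n = 3). With median-of-ratios scaling the mature means of EdulChr101G00315260 were 20899 in cultivated and 16237 in wild corms. Those of EdulChr101G00315270 were 8075 and 8810, the opposite order. EdulChr107G00327040 and EdulChr107G00327050 were both high in the third cultivated initial library, at 3720 and 4191 TPM against 1803 to 2126 TPM in the other 2.

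Identifiers at most 5 places apart formed 8 pairs, a distance chosen after seeing the data. They included EdulChr2G00009710, EdulChr2G00009740, EdulChr2G00009750 and EdulChr2G00009780, all highest in cultivated initial corms, with little message from the identifiers between them. EdulChr2G00009720, EdulChr2G00009730, EdulChr2G00009760 and EdulChr2G00009770 had highest group means of 0.20, 1.18, 8.50 and 3.00 TPM. Nearness did not always go with likeness: EdulChr65G00224110, highest in wild middle corms, and EdulChr65G00224140, highest in cultivated late corms, had a Pearson r of -0.78 over 24 libraries. EdulChr7G00030120 and EdulChr7G00030160 had an r of -0.04.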

How the data were processed

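The series design names DNBSEQ-T7 as the sequencer for the 24 corm libraries. The authors deposited 1 table of TPM values, with library totals of 999991 to 1000002. The submitters' processing notes name StringTie 2.1.6, HISAT2 2.0.4 and DESeq2, with no role. Not given in the sources used here were the build, annotation, strand setting and filters. TPM keeps no depth, so no counting interval was possible and precision rests on 3 replicates. Columns were matched to samples by origin, stage and sample number in the titles.

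The dominant genes, here members, had a mean of 2000 TPM or more in at least 1 group. The members, lists and tests were chosen with earlier results of these data known. In R 4.3.3, limma 3.58.1 (trended eBayes) was fitted to log2(TPM + 1) of 27050 genes, with 24 libraries and 8 group means and no replicate block. Its calls needed a Benjamini-Hochberg adjusted p under 0.05 and at least 2-fold. The procedure was checked on simulated data. Genes were named by level (the 3 highest members per group and any at the limit in all groups), by the 3 largest ratios of each origin over the other, by the 2 largest tested rises and falls per origin, by nearness to the limit and by adjacent identifiers. Other members were named after their values were seen. Alternatives were another pseudocount, other filters, median-of-ratios scaling, EdulChr identifiers rescaled alone, fits to the compared groups, a replicate block, each library left out and other limits.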

Additional observations from a re-analysis of the deposited data

Results flagged for a closer look

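In 4 of the 30 genes named by rule, every mature library lay on one side of every initial library in cultivated corms and on the other side in wild corms. Over all 96 genes this was so for 16, or 16.7%, close to 16.8% of all genes tested. The difference between the origins was not tested, since the levels had chosen the genes. For EdulChr8G00035780 the log2 change was -0.82 in cultivated corms and 2.39 in wild ones, which makes a difference of -3.20, but with median-of-ratios scaling its cultivated means were 16929 at the initial stage and 15680.4 at maturity, so that little of the cultivated change was left. EdulChr21G00085610 had changes of 1.47 and -4.41, a difference of 5.88. EdulChr101G00314220 had changes of 1.79 and -0.48, a difference of 2.27, but with median-of-ratios scaling its wild means were 3161 at the initial stage and 5087 at maturity, so that its opposite directions depended on the scaling. EdulChr107G00327040 had changes of -4.47 and 1.37, a difference of -5.84, and it is one of the genes whose level in cultivated initial corms was higher in the third library.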

How the results depend on the processing

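The number of genes over the limit was 237 at 1000 TPM and 32 at 5000 TPM, against 96, and lay between 95 and 97 with each library left out. Against EdulChr identifiers alone, their share of TPM was 22.2, 29.0, 27.1 and 36.0% in cultivated and 12.5, 14.8, 21.2 and 37.1% in wild corms from initial to maturity. Adjacent identifiers numbered 3 pairs, and 8 at most 5 places apart. Of the tested genes, the percentage called in the other origin moved by over 1.5 times as follows. After median-of-ratios scaling it was 42.3% higher and 2.82% lower for wild late against middle, 14.1% lower for wild maturity against late, 71.8% higher and 4.23% lower for wild maturity against initial, and 2.08% lower for cultivated maturity against late. With EdulChr identifiers alone, rescaled, the last was 6.25%. With members at 5000 TPM or more, wild middle against initial gave 47.6% higher and 0% lower, late against middle 33.3% and 4.76%, maturity against late 14.3% lower, and maturity against initial 76.2% and 4.76%, while cultivated maturity against late gave 65% and 0%. With members at 1000 TPM or more, cultivated late against middle gave 7.75% higher and maturity against late 23.2% higher. The cause was not tested. The 8 changes named by the size of a tested rise or fall kept their sign and call under every alternative run. Replicate numbers did not pair the libraries: same-numbered libraries of the compared groups had correlations of deviations from -0.0875 to 0.168, and libraries matched best with their own number in all 3 cases for cultivated maturity against initial and in at most 1 of 3 elsewhere. A replicate block left the number of calls as it was, for example 42.3% higher and 11.3% lower for wild maturity against initial and 41.7 and 35.4% for cultivated. Depth is unknown.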
